A study of Mus musculus with 12 samples.

Results

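The 10 genes described here encode the postsynaptic scaffold proteins of the Dlg, Shank and Homer families: Dlg1, Dlg2, Dlg3, Dlg4, Shank1, Shank2, Shank3, Homer1, Homer2 and Homer3. They were chosen by name, 10 of the 55413 genes annotated on chromosomes 1 to 19, X and Y (GENCODE M21, GRCm38), and all 10 were found. For each gene the H4K12ac peaks within 2 kb of the annotated 5′ end, at the alternative transcription starts and in the gene body were read from 10 peak lists, 1 list per mouse.

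H4K12ac, acetylation of lysine 12 of histone H4, was measured by ChIP-Seq in sorted neuronal nuclei from whole hippocampi, 5 of Tip60 cKO and 5 of control animals, to ask where loss of the acetyltransferase TIP60 changes the mark. Tip60 cKO mice carried the CaMKCreER T2 driver and Tip60 f/f alleles, whereas control mice carried Tip60 f/f without the driver. Both groups received tamoxifen, were 3 months of age and, by the labels, male C57BL/6J, and tissue was taken at day 10 after the injections. The driver acts in excitatory forebrain neurons, while the sort kept neuronal nuclei of every kind, so a mark that is lower in all nuclei and a mark that is absent from some nuclei cannot be told apart. The lists hold no measure of Tip60 RNA or of the deleted exons, and the genotype labels were therefore not checked against the targeted gene.

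Libraries held 22864189 to 37923809 tags after duplicate removal and 64245 to 136409 peaks. Tip60 cKO replicate 5 was the shallowest in both respects. Input DNA was pooled, 1 input per genotype, and 45.3% to 57.8% of the peaks of each Tip60 cKO library but 27.4% to 34.5% of those of each control library were scored against a background within 1% of the lowest in that library. As a check of the sort, 6 of 8 neuronal marker genes had a peak at the 5′ end in all 10 lists; Gad1 had none and Gad2 had one in 1 list. Of 8 glia and vessel markers, Pdgfra, Aldh1l1, Cx3cr1, Aif1 and Mog had no peak in any list and Cldn5 had one in 1 Tip60 cKO list, whereas Mbp had one in all 10 lists and Gfap in 9.

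Postsynaptic scaffolds link glutamate receptors to signaling enzymes and to the actin cytoskeleton beneath the synaptic membrane. The Dlg genes encode membrane-associated guanylate kinases, SAP97 (Dlg1), PSD-93 (Dlg2), SAP102 (Dlg3) and PSD-95 (Dlg4), which hold AMPA and NMDA receptors through their PDZ domains. Shank proteins form the next, deeper layer and bind Homer, and Homer proteins couple Shank to metabotropic glutamate receptors and to calcium release channels of the endoplasmic reticulum. Homer1 also gives a short, activity-induced form, Homer1a, that lacks the coiled coil and uncouples these partners. Histone acetylation, H4K12ac included, is found mainly at active promoters and enhancers, and several of these genes are known to use more than 1 promoter.

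Sequences at 5 starts are shown first, because the members differ in where along the gene the peaks lie. The RefSeq promoter table (GRCm38.p6) held 18 start sites for 8 of the 10 genes, and all 18 sequences equalled the genome at their coordinates; Shank1 and Shank2 are named only. Each line gives the 200 bases upstream of the start, on the + strand, 5′ to 3′, in lower case with CpG dinucleotides in capitals, and none of these windows overlaps an annotated exon. The first is the internal Homer1 start with a peak in all 10 lists (chr13:93303557-93303756), the second the internal Homer1 start with a peak in no list (chr13:93307834-93308033), the third the Shank3 start (chr15:89499408-89499607), the fourth the Dlg1 start (chr16:31663243-31663442), both of the latter with a peak in all 10 lists, and the fifth an internal Dlg2 start with a peak in 3 control lists and no Tip60 cKO list (chr7:92062194-92062393).
Homer1 internal start at 4.1 kb: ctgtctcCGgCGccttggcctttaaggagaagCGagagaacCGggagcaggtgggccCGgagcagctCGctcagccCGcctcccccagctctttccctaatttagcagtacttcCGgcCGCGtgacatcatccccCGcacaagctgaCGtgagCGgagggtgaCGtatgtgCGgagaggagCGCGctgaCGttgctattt
Homer1 internal start at 8.4 kb: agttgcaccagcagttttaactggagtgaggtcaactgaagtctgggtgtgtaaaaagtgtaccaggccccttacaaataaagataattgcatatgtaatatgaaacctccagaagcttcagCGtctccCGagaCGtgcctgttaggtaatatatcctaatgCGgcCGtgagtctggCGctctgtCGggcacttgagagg
Shank3 5′ end: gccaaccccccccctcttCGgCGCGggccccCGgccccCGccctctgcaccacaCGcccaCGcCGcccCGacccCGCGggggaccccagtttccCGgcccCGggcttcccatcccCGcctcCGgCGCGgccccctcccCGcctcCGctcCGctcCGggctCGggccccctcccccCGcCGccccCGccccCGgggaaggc
Dlg1 5′ end: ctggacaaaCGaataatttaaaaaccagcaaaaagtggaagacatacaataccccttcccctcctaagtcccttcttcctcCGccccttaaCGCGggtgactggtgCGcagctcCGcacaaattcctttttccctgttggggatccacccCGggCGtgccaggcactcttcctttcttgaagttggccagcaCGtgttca
Dlg2 internal start at 1585.7 kb: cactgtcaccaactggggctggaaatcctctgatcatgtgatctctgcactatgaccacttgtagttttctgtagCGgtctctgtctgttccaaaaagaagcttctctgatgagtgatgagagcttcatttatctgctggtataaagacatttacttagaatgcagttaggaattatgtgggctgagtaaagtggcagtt

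The printed stretch held 18 CpG at the Homer1 start with peaks and 7 at the one without, 26 at Shank3, 9 at Dlg1 and 1 at the Dlg2 start. Over the whole promoter window of 300 bases, from 250 before to 50 after the start, Homer1 at 4.1 kb held 26 CpG and Shank3 40, more than 83.1% and 96.1% of the 32851 RefSeq promoters, whose median was 7. Across the 52 starts of the 10 genes, annotated and alternative, in windows of the same length, the 24 with a peak in all 10 lists held a median of 8.5 CpG with a range from 2 to 41. The 16 with a peak in 3 to 9 lists held a median of 4.5, ranging from 1 to 30. The 12 with a peak in at most 2 lists held a median of 2.5, ranging from 0 to 7, and all these ranges overlapped. A set of 5 motifs was searched on both strands: the cAMP response element TGACGTCA, its core TGACG, which the full element contains, the E-box CACGTG, the GC box GGGCGG and the EGR site GCGTGGGCG, whose end can overlap a GC box. The full cAMP response element was in none of the 18 windows, against 1.79% of all promoters. The core was in 3 windows, of Dlg3, Dlg4 and Homer1, against 20.8%, and at the Homer1 start at 4.1 kb it occurred 3 times, counting both strands, within the printed stretch. The E-box was in 2 windows of Dlg1 (7.15% of all promoters), the GC box in 7 windows of 6 genes (35.7%) and the EGR site in 1 window, of Shank3 (0.612%).

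At the annotated 5′ ends, 7 of the 10 genes had an H4K12ac peak in all 10 lists: Dlg1, Dlg2, Dlg4, Shank1, Shank3, Homer2 and Homer3. Over all protein-coding genes this was the case for 44.0%. Dlg3 had a peak in 9 lists, Homer1 in 2 and Shank2 in none. The 5′ ends lie at the start of chr16:31663443-31875129 (Dlg1), chr7:90476672-92449247 (Dlg2), chrX:100767722-100818410 (Dlg3), chr11:70016942-70047522 (Dlg4), chr7:44310253-44360572 (Shank1), chr7:144001928-144424494 (Shank2), chr15:89499623-89560261 (Shank3), chr13:93299635-93405129 (Homer1) and chr8:70282827-70294361 (Homer3), all on the + strand, and at the end of chr7:81600481-81707527 for Homer2, which is on the − strand. The windows of Dlg2 and Dlg4 also hold the start of another gene, Tmem126b at -671 and Acadvl at -1531 bases, both on the opposite strand, so a peak there cannot be assigned to 1 gene.

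Peak height is given as the fold enrichment over input of the strongest peak in the window, as deposited, and is 0 where a list has no peak there. Shank3, whose human counterpart is lost in Phelan-McDermid syndrome, had the highest mean, 9.36 ± 2.14 (SD, n = 5) in control mice, with 12.1, 7.72, 11.1, 7.15 and 8.74 in replicates 1 to 5. In Tip60 cKO mice the Shank3 values were 8.84, 5.73, 8.11, 7.61 and 6.3, a mean of 7.32 ± 1.28, and the groups overlapped. Shank1 followed in control mice with 8.03 ± 1.01, then Homer2 with 7.71 ± 0.594, Dlg4 with 7.49 ± 1.10, Homer3 with 7.35 ± 0.661, Dlg1 with 7.16 ± 1.64, Dlg2 with 6.59 ± 0.966 and Dlg3 with 4.98 ± 0.396. Each neighbouring pair in this order had overlapping values among the control mice except Dlg2 and Dlg3. Dlg3, on the X chromosome, was thus the lowest by fold enrichment of the genes with a regular peak, and Tip60 cKO replicate 2 had no Dlg3 peak. By the labels the mice were male, with 1 X chromosome. Each Dlg3 peak was scored against 1.0 times the lowest background of its library. The part of copy number in this and the later Dlg3 values was not tested.

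**Figure D1:**
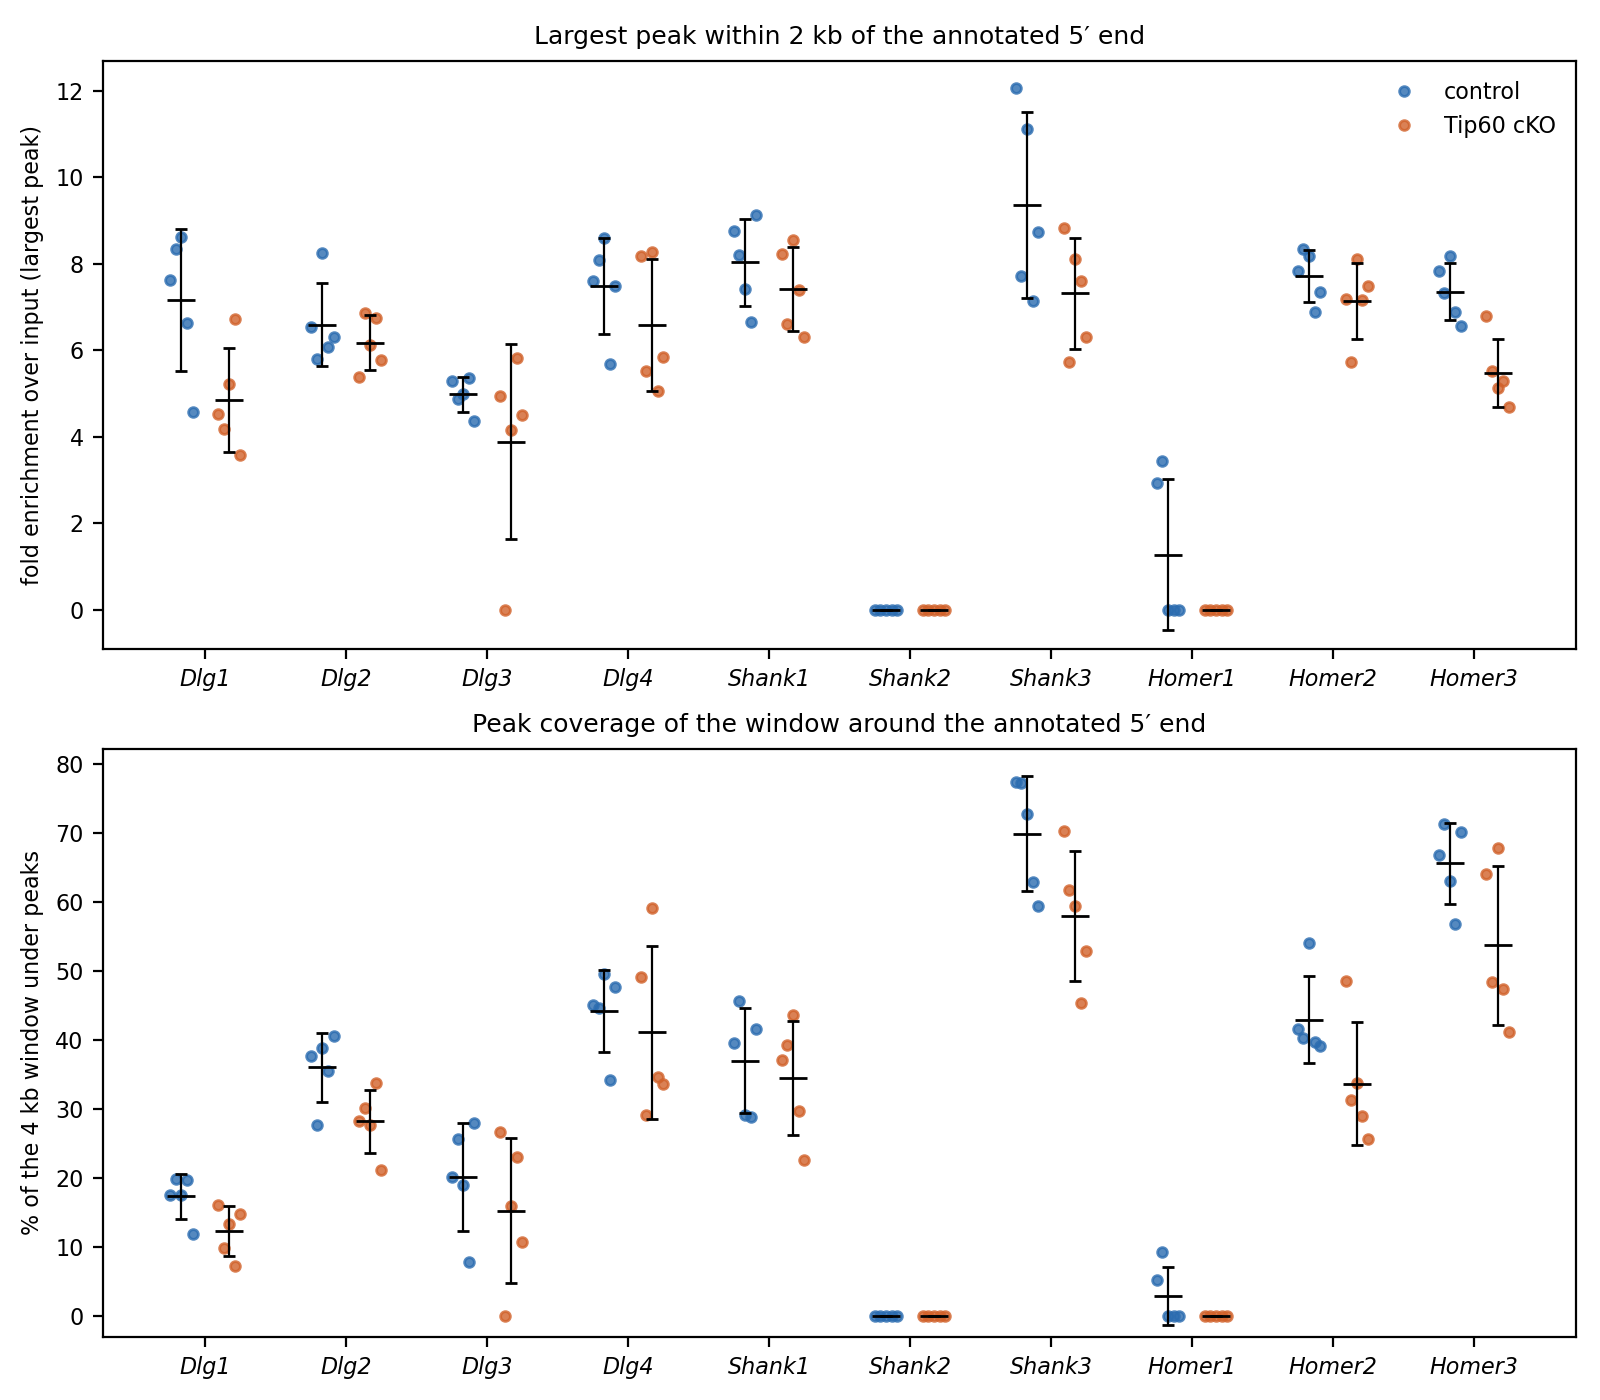
Fold enrichment over input of the strongest peak (top) and percent of the 4 kb window covered by peaks (bottom) at the annotated 5′ end of each gene. Points are mice (blue control, orange Tip60 cKO), horizontal bars are means and vertical bars SD of 5 mice; a mouse without a peak is at 0. All 10 mice lie at 0 for Shank2, and the groups overlap for every gene.

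To compare libraries of different depth, the strongest peak of each window was converted to a rank score, the percent rank among the windows of all 55413 genes of that list, from 0 without a peak to 100. Because ranks are taken within a list, a change in peak height shared by most windows cannot appear in this score. The same limit holds for the rank scores of alternative starts and regions given below. No member passed the test between genotypes by the TSS rank score (0 of 9 genes tested by limma with Benjamini-Hochberg adjustment over 21672 genes; 0.235% of all genes tested were called); 1 member, Homer3, was lower at an unadjusted p below 0.05, where 6.68% of all genes tested were lower and 5.10% higher. Homer3, the shortest of the 10 genes, had scores of 93.1, 89.1, 85.2, 85.1 and 83.5 in Tip60 cKO mice and 94.3, 92.9, 94.9, 92.7 and 91.0 in control mice. Of the Tip60 cKO mice only replicate 1 reached the control range. The Homer3 difference of -5.98 ± 2.19 (SE) gave p = 0.0226 and adjusted p = 0.347 by limma, and p = 0.0317 by the exact permutation test. Dlg1 had scores of 79.3, 77.9, 85.5, 93.7 and 74.0 in Tip60 cKO and 93.6, 96.3, 96.2, 91.4 and 78.2 in control mice, which overlap, with a difference of -9.07 ± 4.69 (SE, limma adjusted p = 0.503). The remaining differences were 2.26 for Dlg2, -14.5 for Dlg3, -0.999 for Dlg4, 1.31 for Shank1, -1.45 for Shank3 and 0.82 for Homer2, the Dlg3 value resting on the replicate without a peak. Their standard errors ranged from 1.92 for Homer2 to 15.7 for Dlg3, and the limma adjusted p from 0.736 to 0.943. For Homer1 only control replicates 1 and 2 had a score, 67.3 and 70.3, and the difference of -27.5 ± 15.8 (SE) had a limma adjusted p of 0.503. The median difference over the 9 genes was -1.45 and over all genes tested -0.69.

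The share of the 4 kb window lying under peaks, the TSS coverage, had a lower mean in Tip60 cKO than in control mice for each of the 9 genes with a peak. Over all genes tested 81.1% had a lower mean, with a median difference of -4.01 percentage points against -5.05 for the 9 genes. None of the 9 passed the test, whereas 1.56% of all genes tested were called, and 3 of the 9 were lower at an unadjusted p below 0.05, as were 22.3% of all genes tested. Shank3 was covered over 77.3%, 77.2%, 72.8%, 62.8% and 59.3% of its window in control and 70.3%, 61.7%, 59.4%, 45.3% and 52.8% in Tip60 cKO mice. Homer3 was covered over 66.8%, 71.2%, 63.1%, 56.7% and 70.1% in control and 64.0%, 48.3%, 67.8%, 47.3% and 41.1% in Tip60 cKO mice. For Shank3, 3 Tip60 cKO mice lay within the control range, and for Homer3, 2 did; the lowest values of both genes were from Tip60 cKO mice. The differences were -12.0 ± 5.02 for Shank3 and -11.9 ± 5.14 for Homer3 (SE, percentage points), with limma adjusted p of 0.183 and 0.195. For Dlg2 the means were 28.2% ± 4.6 in Tip60 cKO animals against 36.0% ± 5.01 in control mice (SD, n = 5 each), a difference of -7.85 ± 3.11 (SE) with a limma adjusted p of 0.165. With the sequencing lane as a covariate Shank3 passed the threshold (limma adjusted p = 0.0482). Homer2 differed by -9.30, Dlg1 by -5.05, Dlg3 by -4.86, Dlg4 by -3.12, Homer1 by -2.87 and Shank1 by -2.47 percentage points. In 0 of the 9 genes did every Tip60 cKO mouse lie below every control mouse, against 5.23% of all genes tested. Coverage of the astrocyte gene Gfap fell from 19.6% ± 4.87 to 4.6% ± 3.36 (SD, n = 5 each, limma adjusted p = 0.0287) and that of the neuronal gene Syt1 from 51.4% to 29.2% (limma adjusted p = 0.0315); the part of cell composition in the members' coverage was not tested.

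Homer1 and Shank2 had their strongest region at an internal start and not at the annotated 5′ end. The annotated 5′ end of Homer1 belongs to 1 of 12 transcripts, which is non-coding, and 10 transcripts start 4.1 kb downstream. At that internal start a peak was present in all 10 lists, with a fold enrichment of 5.87, 6.28, 6.08, 6.89 and 6.20 in control replicates 1 to 5 and 5.69, 5.07, 4.78, 4.47 and 3.60 in Tip60 cKO replicates 1 to 5. Every Tip60 cKO mouse lay below every control mouse there. How many of all alternative starts were separated in this way by fold enrichment was not counted. At annotated 5′ ends, 16191 of 21672 genes had a lower Tip60 cKO mean by log2 fold enrichment relative to the library median. Rank scores at the Homer1 start at 4.1 kb, taken among 26876 alternative starts, were 94.3, 93.2, 90.7, 89.4 and 83.9 in Tip60 cKO and 93.7, 94.9, 94.0, 97.1 and 95.3 in control mice, where Tip60 cKO replicate 1 lay within the control range. The difference in rank score was -4.70 (limma adjusted p = 0.571; exact two-sided permutation p = 0.0238 without adjustment, n = 5 per group). The second internal Homer1 start, 8.4 kb downstream, had no peak in any list.

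Shank2 has 1 transcript at its annotated 5′ end and 4 alternative starts, of which the first, 29.3 kb downstream, had no peak either. The starts at 173.6, 282.5 and 415.9 kb had a peak in all 10 lists. At 173.6 kb, the start of a single transcript, fold enrichment was 7.06, 7.0, 8.34, 7.02 and 8.34 in control and 6.78, 4.85, 7.23, 7.83 and 8.10 in Tip60 cKO mice. At 282.5 kb, the start of 2 transcripts, it was 8.44, 8.33, 12.0, 7.43 and 8.48 in control and 7.81, 7.06, 6.45, 8.05 and 6.90 in Tip60 cKO mice. Genotypes overlapped at both, and the rank scores differed by -0.36 and -0.35 (limma adjusted p = 1.0 for each). Among 11617 protein-coding genes with an alternative start, 3510 had a peak at the 5′ end in at most 2 lists, and 422 of these, 12.0%, had an alternative start with a peak in all 10 lists.

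Of the 42 alternative starts of the 10 genes, 17 had a peak in all 10 lists and 4 in none, whereas over the annotation 14.0% of 26876 had one in all lists and 50.5% in none. Some of the 17 belong only to transcripts annotated as retained introns or processed transcripts. These are Shank1 at 25.8, 31.9 and 40.5 kb, Shank2 at 415.9 kb, Shank3 at 31.2 kb and Dlg2 at 1704.0 kb. A peak near such a start need not mark a promoter. No alternative start of a member was called (limma, 0.256% of the 10928 tested over the annotation). At an unadjusted limma p below 0.05, 1 was lower, as were 6.00% of all alternative starts tested. It was the Dlg2 start at 1585.7 kb, which entered the fit through control lists alone, so this count reflects which lists hold a peak. All 4 alternative starts of Shank1 and all 3 of Shank3 had a peak within 2 kb in every mouse. Position 31.2 kb of Shank3 itself lay under a peak in 1 Tip60 cKO list and 0 control lists. The Shank1 start at 25.8 kb reached 8.68 ± 2.38 and that at 40.5 kb 7.75 ± 1.92 in control mice, against 7.62 ± 0.797 and 7.26 ± 0.717 in Tip60 cKO mice (fold enrichment, SD, n = 5). The start at 33.3 kb of Shank3 scored by rank 98.9, 98.6, 97.4, 99.97 and 97.9 in Tip60 cKO and 95.4, 95.7, 97.0, 96.8 and 98 in control mice, a difference of 1.96 (limma adjusted p = 0.739, exact permutation p = 0.0238), and the peak was scored against a background of 1.0 to 1.01 times the lowest of the library in Tip60 cKO and 1.21 to 1.29 times in control mice. At the Homer1 start at 4.1 kb, which had a lower mean, these were 1.0 to 1.35 and 1.05 to 1.12 times, and the part of the background in the differences was not tested. Homer3 at 2.4 kb, which in most mice shares its peak with the 5′ end, had a difference of -3.63 (limma adjusted p = 0.571, exact permutation p = 0.0159). Peaks were likewise shared by the Shank1 5′ end and the start at 2.4 kb, and, in most mice, by the Shank3 starts at 31.2 and 33.3 kb and by the Dlg4 starts at 9.9 and 12.5 kb, so these pairs are not independent.

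**Figure D2:**
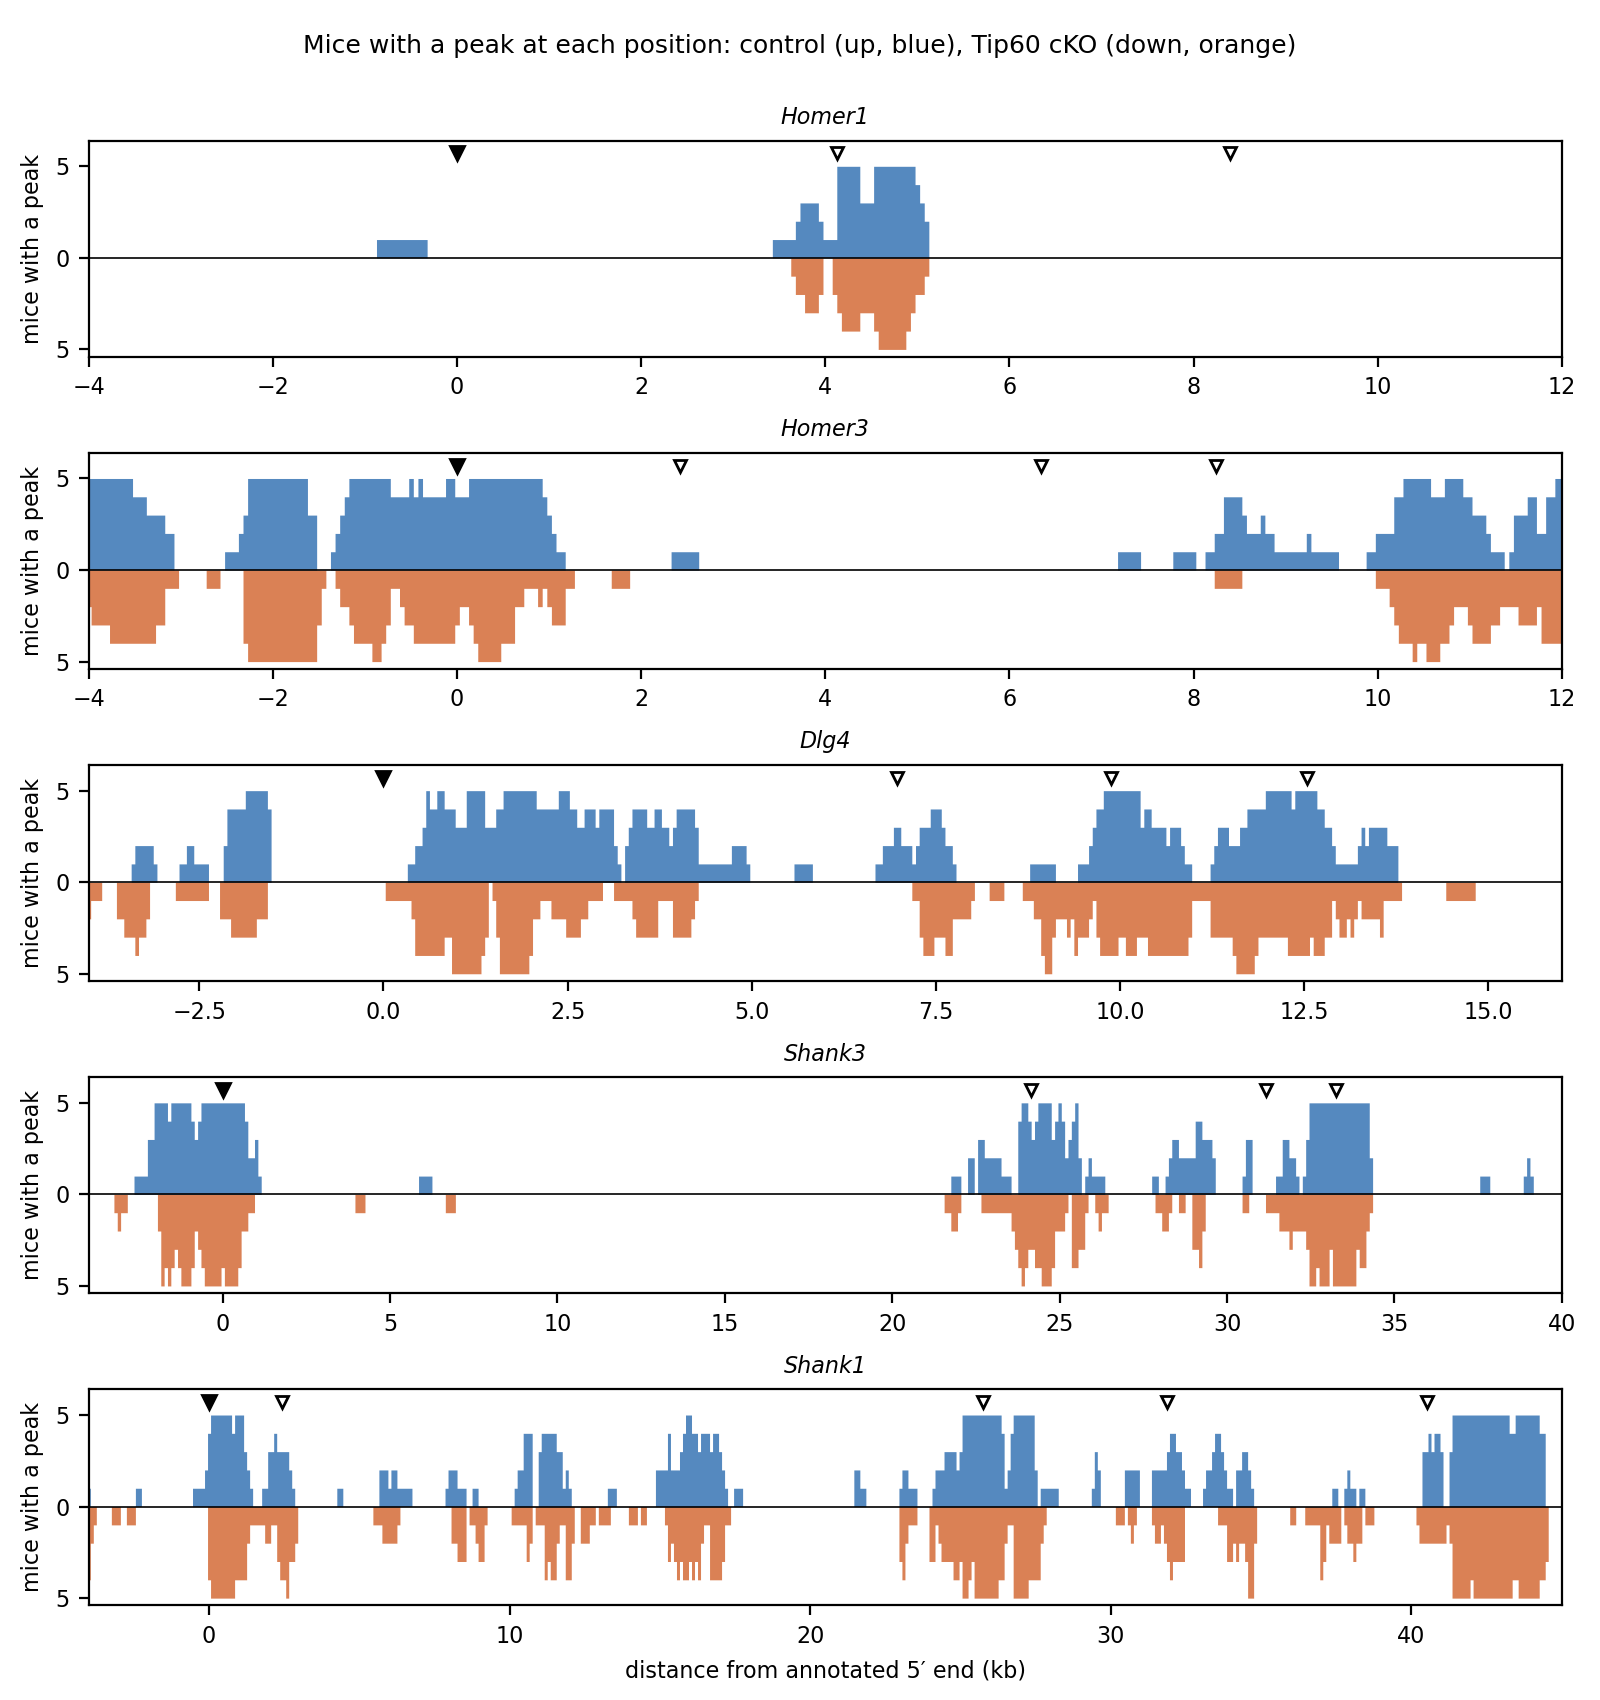
Number of mice with a peak at each position relative to the annotated 5′ end (kb) of Homer1, Homer3, Dlg4, Shank3 and Shank1, upwards for control (blue) and downwards for Tip60 cKO mice (orange), 5 mice each. Filled triangles mark the annotated 5′ end and open triangles alternative starts; the Homer1 peaks present in all mice lie at the start at 4.1 kb and not at the annotated 5′ end.

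Among the Dlg genes, Dlg2 had a peak in all lists within 2 kb of 2 of its 7 alternative starts. A peak in all 10 lists lay at 614.0 kb, the start of 3 transcripts, with 5.83 ± 0.526 in control and 5.33 ± 0.648 in Tip60 cKO mice (fold enrichment, SD, n = 5). Another lay at 1704.0 kb, with rank scores of 90.2, 85.7, 84.4, 93.9 and 94.2 in Tip60 cKO and 83.8, 81.8, 84.0, 82.1 and 87.8 in control mice. The difference at 1704.0 kb was 5.77 (limma adjusted p = 0.571, exact permutation p = 0.0397), and the peak was scored against 1.0 times the lowest background of the library in each Tip60 cKO mouse and 1.15 to 1.26 times in control mice. The start at 1585.7 kb had scores of 75.6, 74.6 and 79.1 in control replicates 1, 2 and 5 and no peak in the other 7 lists. Its difference was -45.9 (limma p = 0.0299, adjusted p = 0.449, exact permutation p = 0.167). This start entered the fit through control lists alone, so its limma p describes which lists hold a peak. Dlg1 had a peak in all lists within 2 kb of 1 of its 9 alternative starts, at 90.9 kb, and Dlg3 and Homer2 had such a peak near none. Dlg4, which encodes PSD-95, had peaks in all lists at 9.9 and 12.5 kb, with fold enrichments of 4.6 ± 0.331 and 4.44 ± 0.584 in control and 4.61 ± 0.615 and 4.57 ± 0.621 in Tip60 cKO mice.

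Along the whole genes, peaks of the 10 lists were merged into regions present in at least 2 lists. The 10 genes held 550 of 144781 regions, of which 61 were present in all 10 lists (11.1%, against 16.4% of all regions). Dlg2, the longest gene at 1972.6 kb, held 277 regions but only 9 in all lists. Shank2 held 129, 19 of them in all lists. Homer2 held 39 with 7, Dlg1 33 with 4, Shank1 24 with 10, Shank3 16 with 6, Dlg4 13 with 2 and Homer1 11 with 1. Homer3 held 4 with 3 and Dlg3 4 with none. Per 100 kb Shank1 and Dlg4 were the densest, with 47.7 and 42.5 regions, and Dlg3 was the sparsest, with 7.89. By place, 9 of 14 regions at annotated starts, 15 of 48 at alternative starts, 8 of 35 at other exons and 29 of 453 in introns were present in all lists.

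**Figure D3:**
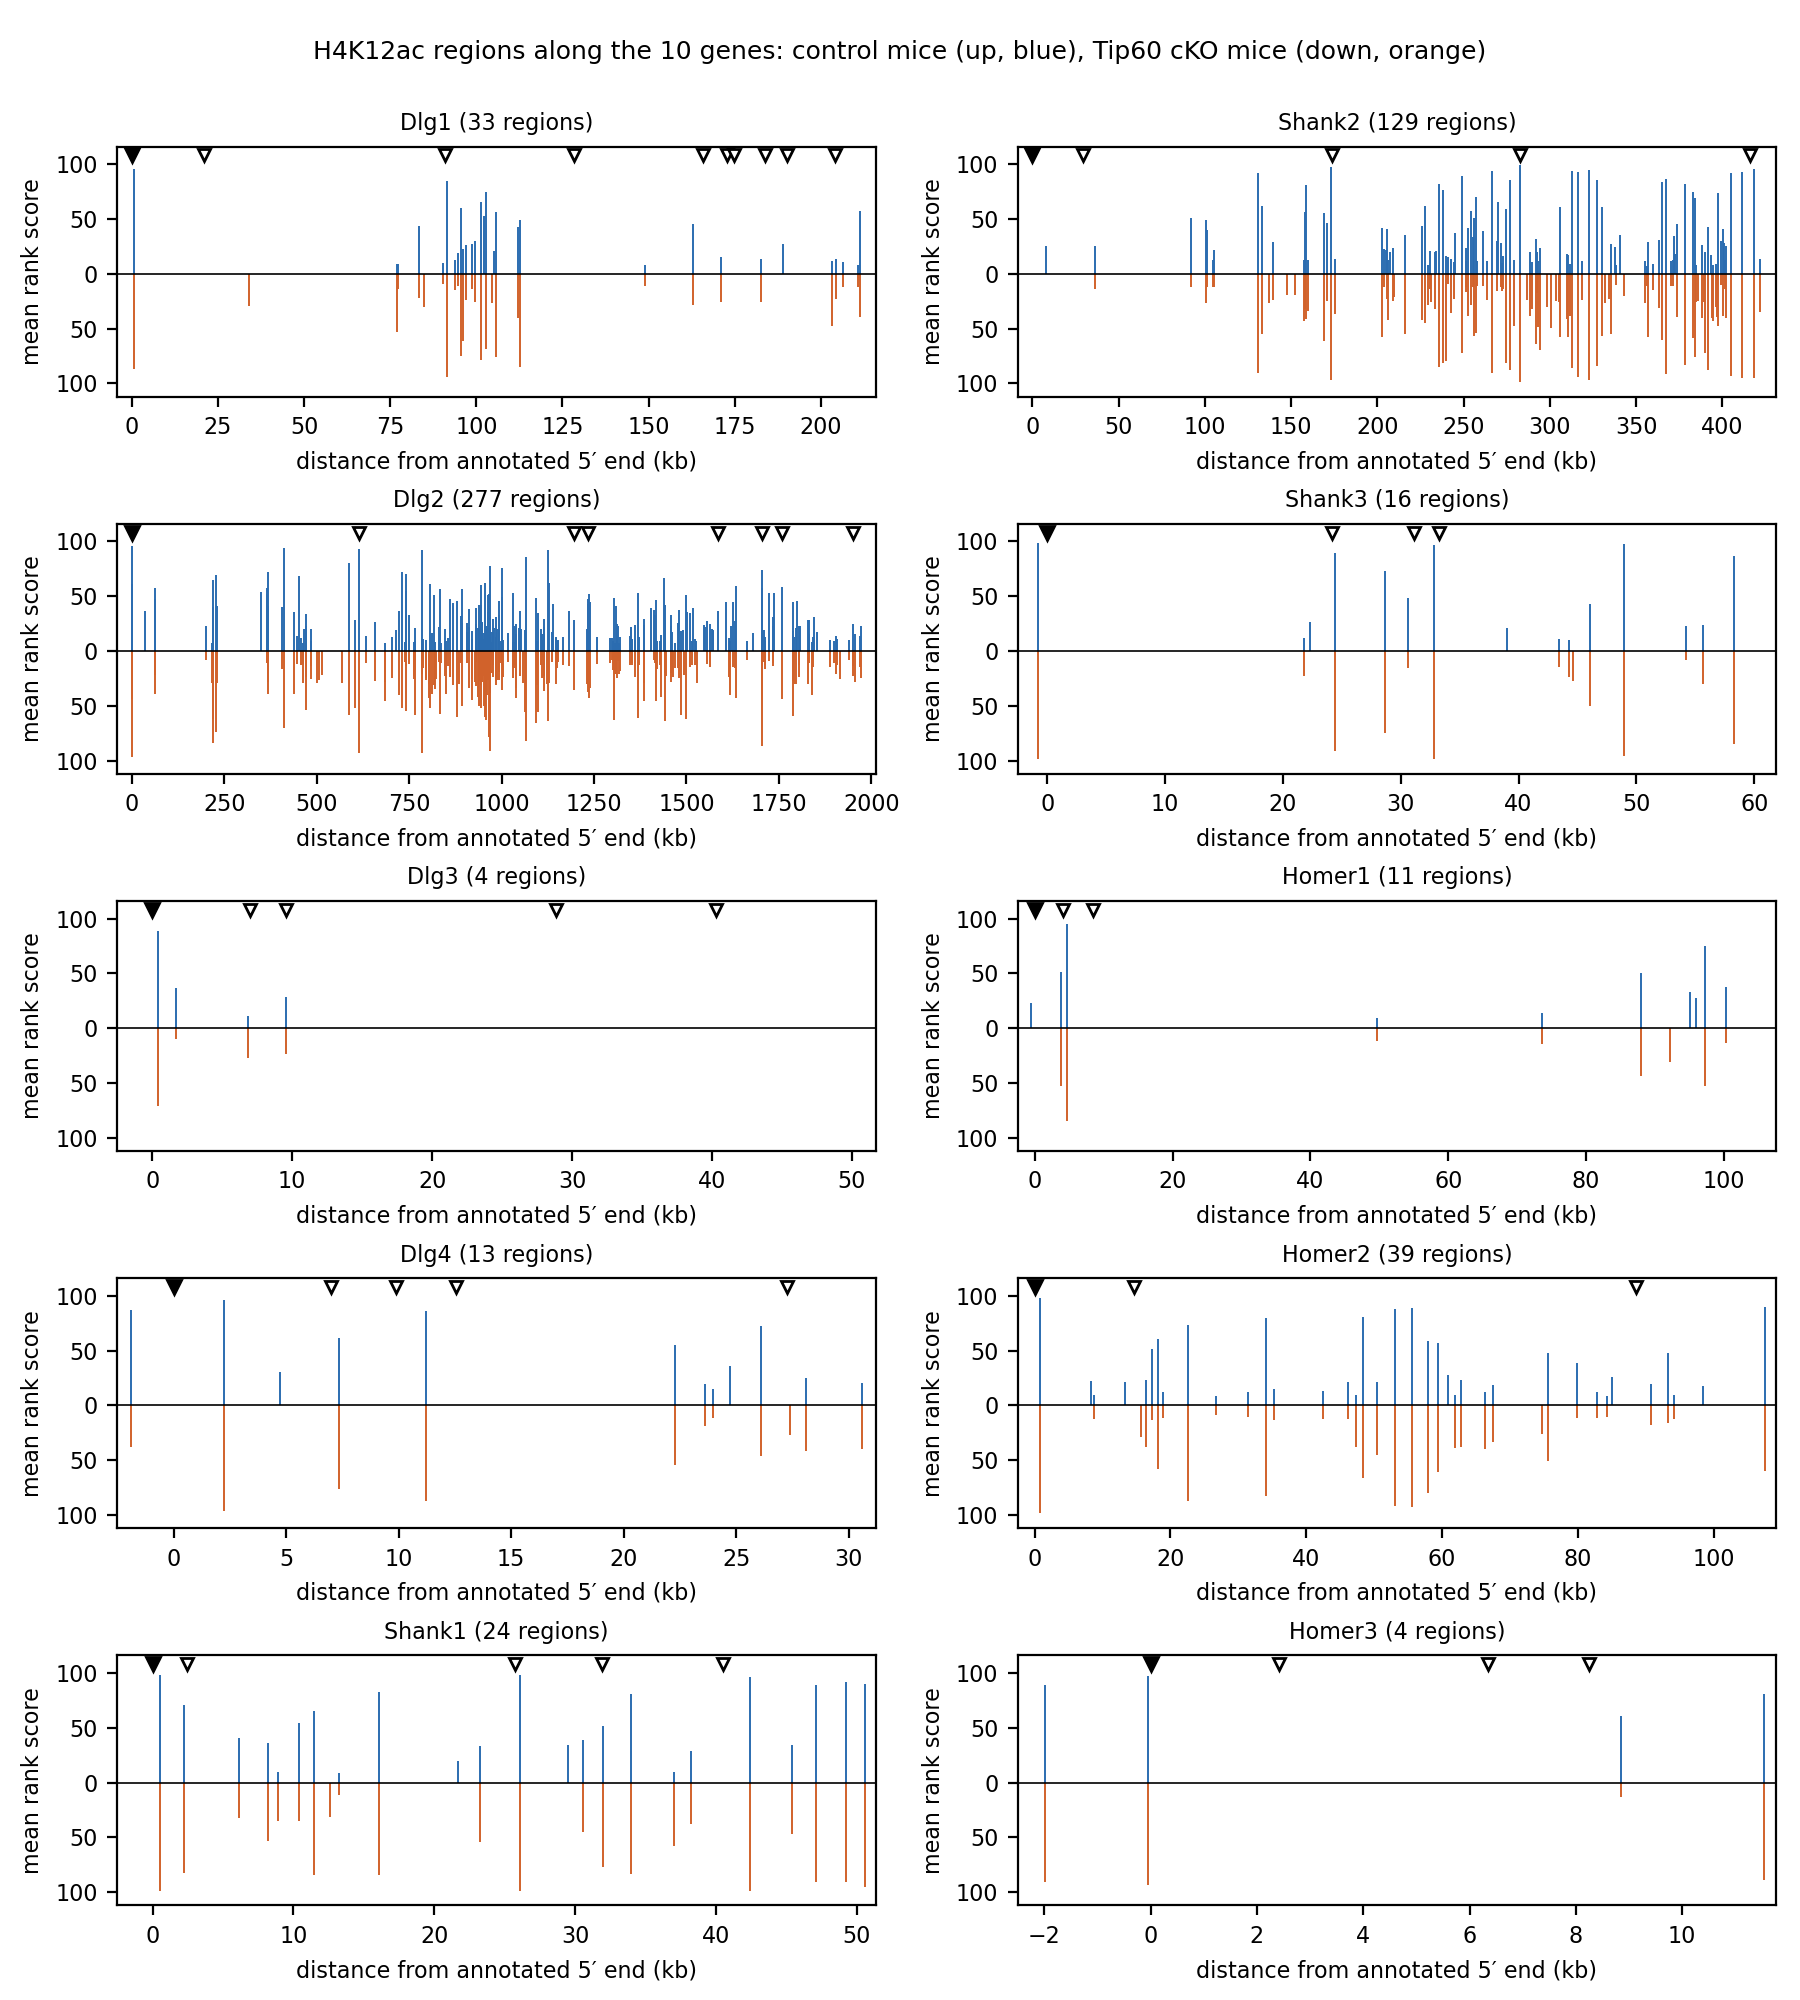
Consensus regions of each gene by distance from the annotated 5′ end (kb). Line height is the mean region rank score of 5 control mice (upwards, blue) and 5 Tip60 cKO mice (downwards, orange); filled triangles mark the 5′ end and open triangles alternative starts. Shank2 holds 2 regions upstream of that at 92.3 kb, and Dlg2 holds 277 regions, 9 of them in all lists.

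The region rank score places the strongest peak of a region among all regions of its list. The strongest region of each gene lay at the annotated 5′ end except for Shank2 (282.5 kb) and Homer1 (4.6 kb). In control mice it scored 99 ± 1.03 in Shank3, 99 ± 0.643 in Shank2, 98.2 ± 1.20 in Shank1, 98 ± 0.515 in Homer2, 97.5 ± 0.763 in Homer3, 96.6 ± 3.62 in Dlg4, 95.7 ± 1.60 in Dlg2, 95.4 ± 5.83 in Dlg1, 95.1 ± 1.40 in Homer1 and 88.9 ± 3.85 in Dlg3 (SD, n = 5). Values of neighbouring genes in this order overlapped except those of Homer1 and Dlg3. The Homer1 region, chr13:93303676-93304783, scored 91.7, 92.5, 72.2, 86.8 and 78.1 in Tip60 cKO and 93.7, 95.2, 93.9, 97.2 and 95.3 in control mice. All Tip60 cKO values were below all control values, as at 1.34% of all regions, yet the difference of -10.8 ± 5.95 (SE) did not pass (limma adjusted p = 0.418). The exact permutation p was 0.00794, the smallest that 5 against 5 mice can give. By pileup the difference was -6.15 and with regions in at least 1 list -6.34 (limma adjusted p = 0.592 and 0.493). The background at this region was 1.0 to 1.62 times the lowest of the library in Tip60 cKO and 1.05 to 1.12 times in control mice. None of the 10 strongest regions was called.

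Of the 550 regions, 4 were called, 0.727%, against 0.562% of all 144781 regions; 3 were lower (0.476% of all regions were called lower) and 1 higher (0.0863%). Dlg2 and Shank2 held 277 and 129 of the 550 regions, and introns of the 10 genes held 453. All 4 calls lay in introns of Dlg2 and Shank2 and outside annotated starts. They were the only regions of the 10 genes that passed; unadjusted, 36 were lower and 22 higher at p below 0.05 (6.55% and 4.0%, against 8.34% and 3.68% of all regions). At the first Dlg2 region (chr7:90825905-90826579, 349.6 kb from the 5′ end) control mice scored 60.1, 42.9, 57.3, 63.9 and 46.1 and no Tip60 cKO mouse had a peak. The difference was -54.1 ± 5.99 (SE, limma adjusted p = 0.00152, and 0.309 with a robust, mean-dependent prior). At the second (chr7:90927577-90928268, 451.2 kb), which also lies in the second exon of the lincRNA gene Gm45159, control mice scored 55.4, 63.3, 60.9, 79.5 and 84.4 and again no Tip60 cKO mouse had a peak. The difference was -68.7 ± 6.93 (SE, limma adjusted p = 0.000864, and 0.171 with that prior). With every list cut to the same number of peaks the difference at 451.2 kb was -32.8 (limma adjusted p = 0.390), and the region at 349.6 kb could not be tested. Both regions entered the fit through control lists alone, and with every Tip60 cKO value at 0 the SE rests on the control mice and the prior, so the p-values are given as a description of which lists hold a peak.

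In Shank2 the region at 269.8 kb (chr7:144271299-144272180), 12.7 kb upstream of the start at 282.5 kb, scored 68.0, 58.9, 46.4, 77.7 and 75.4 in control mice and was absent from all Tip60 cKO lists. The difference was -65.3 ± 7.01 (SE, limma adjusted p = 0.00125), with the same limit as in the Dlg2 regions. The call was lost with peaks at q below 0.01 (difference -56.0, adjusted p = 0.136) and at the same number of peaks (difference -44.2, adjusted p = 0.316). The region at 239.7 kb (chr7:144240947-144242287) went the other way. It scored 77.8, 80.3, 84.5, 77.0 and 76.8 in Tip60 cKO mice, and 40.1 and 41.9 in control replicates 2 and 5, with no peak in the other 3 control lists. The score rose by 62.9 ± 10.3 (SE, limma adjusted p = 0.0247). This last call was lost with sequencing lane as a covariate (adjusted p = 0.0515) and without Tip60 cKO replicates 1, 2, 3 or 4 or control replicates 1 or 3 (adjusted p from 0.0521 to 0.062). It was also lost in lane 7 only (0.102), by log2 fold enrichment (0.127), with regions in at least 1 list (0.185) and by pileup (limma adjusted p = 0.418). With every list cut to the same number of peaks it was the single call that remained. The difference was then 79.3 (limma adjusted p = 6.28e-06), which equals the Tip60 cKO mean, so no control list held the peak. The region thus entered that fit through Tip60 cKO lists alone, and this p-value describes which lists hold a peak. The background against which the peak was scored at 239.7 kb was 1.0 to 1.01 times the lowest of the library in the 5 Tip60 cKO mice and 1.67 and 1.74 times in the 2 control mice; the part of the pooled inputs in the difference was not tested. All 4 calls were lost with the robust prior (adjusted p from 0.171 to 0.309).

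The 200 bases around the median peak summit of the 4 called regions are printed (GRCm38.p6, + strand, CpG in capitals). No other interval of the 10 genes passed the main test between genotypes, and the 3 lower regions carry the limit given above. They are chr7:90826275-90826474, chr7:90927714-90927913, chr7:144241575-144241774 and chr7:144271561-144271760.
Dlg2 region at 349.6 kb: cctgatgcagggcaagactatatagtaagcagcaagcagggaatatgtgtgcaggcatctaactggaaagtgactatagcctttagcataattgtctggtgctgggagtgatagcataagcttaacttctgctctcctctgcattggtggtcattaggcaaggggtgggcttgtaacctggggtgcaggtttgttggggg
Dlg2 region at 451.2 kb: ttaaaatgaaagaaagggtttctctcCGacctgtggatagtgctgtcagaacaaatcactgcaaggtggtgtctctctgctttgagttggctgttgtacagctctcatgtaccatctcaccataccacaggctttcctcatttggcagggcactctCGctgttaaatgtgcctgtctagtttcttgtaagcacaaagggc
Shank2 region at 239.7 kb: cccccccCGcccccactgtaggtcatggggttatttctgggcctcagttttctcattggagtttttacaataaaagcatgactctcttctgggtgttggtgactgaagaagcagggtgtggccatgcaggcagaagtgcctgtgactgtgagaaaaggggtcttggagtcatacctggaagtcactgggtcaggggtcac
Shank2 region at 269.8 kb: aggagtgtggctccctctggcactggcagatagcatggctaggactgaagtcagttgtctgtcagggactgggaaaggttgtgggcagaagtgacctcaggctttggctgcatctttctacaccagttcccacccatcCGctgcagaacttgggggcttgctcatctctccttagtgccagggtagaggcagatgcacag

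They held 0, 2, 1 and 1 CpG, respectively, and of the 5 motifs only the GC box was found, in the Shank2 region at 239.7 kb. Their fold enrichments were modest, with control means of 3.04, 3.66 and 3.42 at the 3 lower regions and a Tip60 cKO mean of 3.92 ± 0.273 at the higher one (SD, n = 5).

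**Figure D4:**
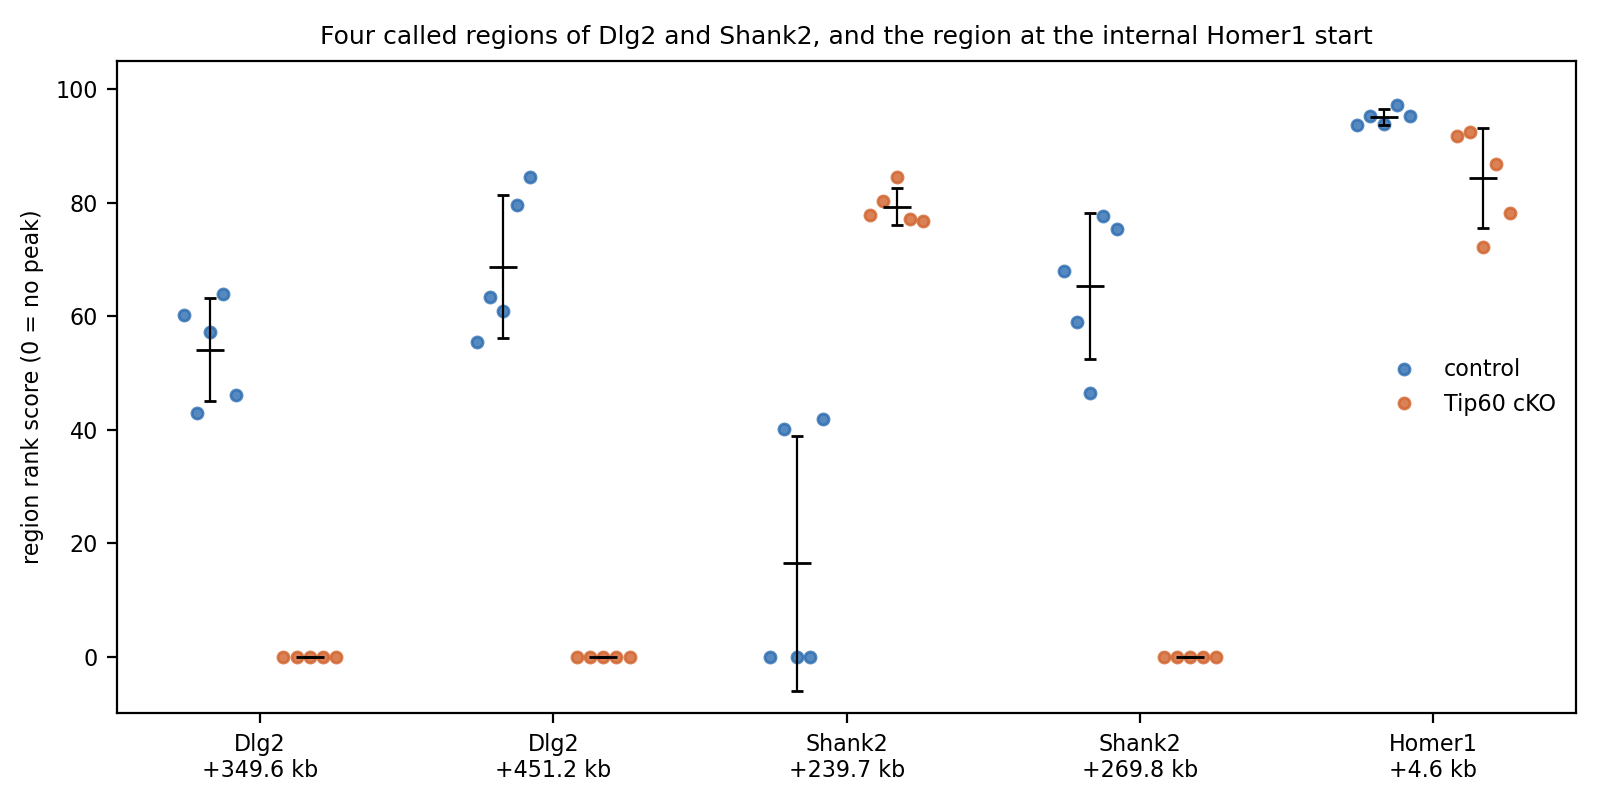
Region rank score of each mouse (blue control, orange Tip60 cKO; 0 means no peak) at the 4 called regions of Dlg2 and Shank2 and at the strongest Homer1 region, with mean and SD of 5 mice. Tip60 cKO mice are all at 0 in 3 regions, and the called Shank2 region at 239.7 kb is the only one of the 5 where they lie above the control mice.

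Groups did not overlap at 11 of the 550 regions: every Tip60 cKO mouse was below every control mouse at 9 (1.64%, against 1.34% of all regions) and above at 2 (0.364%, against 0.783%). Besides those described, 2 Dlg2 regions present in all 10 lists, picked out after their values were seen, had this pattern. At 410.5 kb control mice scored 92.2, 93.0, 98, 90.2 and 96.8 and Tip60 cKO mice 82.6, 50.5, 50.3, 78.5 and 86.9 (difference -24.3, limma adjusted p = 0.351). At 1126.6 kb control mice scored 92.0, 91.2, 90.8, 95.2 and 92.3 and Tip60 cKO mice 51.6, 72.7, 63.5, 54.5 and 74.9 (difference -28.9, limma adjusted p = 0.129). These were the 2 regions called with the robust prior (adjusted p = 0.0267 and 0.0298), and that at 1126.6 kb was also called among regions in at least 5 lists (adjusted p = 0.0239). Their peaks were scored against a background of 1.35 to 2.41 and 1.38 to 1.69 times the lowest of the library in Tip60 cKO mice, and of 1.05 to 1.26 and 1.06 to 1.08 times in control mice, and the part of the background was not tested. In Shank2 the region at 312.9 kb was lower in every Tip60 cKO mouse, 79.6 to 90.8 against 92.2 to 95.7 (limma adjusted p = 0.427), and that at 391.6 kb higher in every Tip60 cKO mouse, 84.2 to 94.7 against 0 to 76.1 (limma adjusted p = 0.163), the latter against a background of 1.0 times in Tip60 cKO and 1.37 to 1.93 times in control mice. Homer2 had 2 regions with every Tip60 cKO mouse below, at 48.4 kb and at 107.6 kb, by its 3′ end (limma adjusted p = 0.388 and 0.418).

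In the other 8 genes no region was called, and the region with the smallest p in each is given. Dlg1 at 102.1 kb had scores of 83.9, 52.2, 72.7 and 53.3 in control replicates 1, 3, 4 and 5 and no peak in the other 6 lists (difference -52.4, limma adjusted p = 0.147). Without control replicate 2, which lacked the peak, this region passed (limma adjusted p = 0.00424). That left every control value above 0 and every Tip60 cKO value at 0, so the outcome was fixed by the mouse left out. Homer3 at 8.8 kb, at an alternative start, had a peak in all 5 control lists (45.5 to 83.9). Of the Tip60 cKO lists only replicate 3 held it (65.4, difference -47.4, limma adjusted p = 0.22). The Homer3 region passed without that replicate (limma adjusted p = 0.0111). Every Tip60 cKO value was then at 0, so this outcome too was fixed by the mouse left out. Dlg4 at -1.9 kb, next to the Acadvl start, scored 70.7 to 95.4 in control mice and 0 to 73.9 in Tip60 cKO mice (difference -49, limma adjusted p = 0.322). Shank1 at 37.0 kb and Homer2 at 57.9 kb had higher means in Tip60 cKO mice, by 48.9 and 20.8 (limma adjusted p = 0.351 for each). In both, the peaks of the Tip60 cKO mice were scored against a lower background than those of the control mice. It was 1.0 against 2.07 times the lowest of the library in Shank1, and 1.0 against 1.04 to 1.47 times in Homer2. The Shank1 control value comes from 1 mouse, and the part of the background in these differences was not tested. Homer1 at 95.1 kb, Shank3 at 22.3 kb and Dlg3 at 1.7 kb had differences of -33.0, -26.9 and -26.7 with limma adjusted p of 0.353, 0.418 and 0.455.

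The share of the gene body under peaks, from 2 kb after the 5′ end to the 3′ end, ranged among the members from under 1% to 31.1% in control mice. In control mice Shank1 was covered over 31.1% ± 6.17, Dlg4 over 25.2% ± 9.36, Shank3 over 18.4% ± 2.38, Homer3 over 18.2% ± 7.83, Shank2 over 13.8% ± 3.18 and Homer2 over 9.11% ± 2.52 (SD, n = 5). Dlg1, Dlg2 and Homer1 had 3.00% ± 0.982, 2.97% ± 1.22 and 2.86% ± 0.759, and Dlg3 had 0.624% ± 0.597. No member was called (limma; 0.351% of 12823 genes tested were called), and 1, Homer1, was lower at an unadjusted p below 0.05, as were 14.9% of all genes tested. Homer1 was covered over 3.44%, 3.23%, 2.47%, 1.71% and 3.46% in control and 2.29%, 1.43%, 2.85%, 1.26% and 0.813% in Tip60 cKO mice, and the groups overlapped. Its difference was -1.13 ± 0.497 percentage points (SE, limma adjusted p = 0.315). Shank1, Shank2 and Homer2 differed by 0.10, -0.17 and -0.16 percentage points with standard errors of 4.68, 2.39 and 1.95. Homer3 differed by -7.44 ± 3.65 and Dlg4 by -4.58 ± 6.41 percentage points (SE, limma adjusted p = 0.367 and 0.787). Dlg1 differed by 0.26, Dlg2 by -0.63, Dlg3 by 0.31 and Shank3 by -3.27 percentage points (limma adjusted p from 0.584 to 0.918).

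A list of 30 other postsynaptic scaffold and adaptor genes, among them Dlgap and Grip genes, was taken for comparison. Of these, 25 had a peak at the 5′ end in all 10 lists and 28 could be tested. None passed by the TSS rank score, with a median difference of -0.13 over the 28. By TSS coverage 24 of 28 had a lower mean in Tip60 cKO mice (81.1% of all genes tested), with a median difference of -5.71 percentage points, and 1 passed (1.56% of all genes tested). That gene was Grasp, which encodes the scaffold tamalin of metabotropic glutamate receptors. Its coverage fell from 58.4% ± 10.4 (range 42.2% to 70.7%) in control mice to 29.4% ± 11.9 (14.4% to 39.6%) in Tip60 cKO mice (SD, n = 5, limma adjusted p = 0.0428), and the groups did not overlap, as was so with every Tip60 cKO mouse below every control mouse for 5.23% of all genes tested. Its call was lost without any 1 of 8 of the 10 libraries, with a limma adjusted p of up to 0.107. Leaving out 1 library gave differences of -33.1 to -25.3 percentage points, against -29.1. The call was also lost in lane 7 only (0.152), with a replicate block (0.1) and with the same number of peaks (0.0832). It was lost on the arcsine scale (0.0734) and with genes in at least 1 list (0.0557). It held at q below 0.01, with the robust prior, with lane as a covariate, in at least 5 lists and in the 1 kb window (0.0215 to 0.0436).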

How the data were processed

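Nuclei were sorted by the authors for a neuronal marker, and H4K12ac ChIP-Seq reads of each mouse were aligned to mm10 (GRCm38), freed of duplicates with SAMtools and passed to MACS2 against the pooled input of the same genotype (q of 0.1). The deposited lists give, per peak, the pileup as coverage signal, the fold enrichment as a ratio to input, and −log10 p and q values. The tags per library limit how small a peak can be called. Read counts were not used here, so the read-based differential test of the authors was not repeated.

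From the lists, rank scores and coverage were computed as described above, with peaks weighed by fold enrichment and no peak set to 0. Alternative starts lie over 2 kb from the 5′ end and were joined when within 1 kb. Features with a peak in at least 2 lists were fitted with limma 3.58.1 (R 4.3.3), genotype as the only term and Benjamini-Hochberg adjustment over all features (threshold 0.05). Exact two-sided permutation tests ran over the 252 splits of 5 against 5 mice, the smallest p being 0.00794. The code was tested on simulated data. Tables were made with Python 3.11.15, numpy 2.4.6 and pandas 2.3.3, and plots with matplotlib 3.10.9. Each list is 1 animal, and p-values set a difference against the spread between these mice, to which limma adds a prior variance. All lists of a genotype share 1 pooled input, so an effect of that input does not enter this spread. Regions were named as the calls, the strongest region and the smallest p per gene. The members and lists were chosen with earlier results of these data known. Alternatives covered the q threshold, number of peaks, prior, lane, replicate block, single replicates, filter, window and measure. No peak ran past a GRCm38 chromosome end. Peaks placed on another build could also meet this, and the effect of the genome build on positions was not tested.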

Additional observations from a re-analysis of the deposited data

Results flagged for a closer look

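Of the 81 groups of 5 mice examined, 8 held a mouse far from the other 4 by Dixon's criterion, where chance marks about 5%. At the 5′ ends, Dlg1 in control replicate 5 had a TSS rank score of 78.2, against 91.4 to 96.3 in the other control mice, and a TSS coverage of 11.8%, against 17.6% to 19.8%. Dlg3 in Tip60 cKO replicate 2 had a TSS rank score of 0, against 78.1 to 88.7, and Dlg4 in control replicate 4 one of 86.2, against 93.4 to 96.0. Homer2 in control replicate 3 had a TSS coverage of 54.0%, against 39.1% to 41.6%.

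At 3 regions a single mouse of its genotype had a peak and the other 4 were at 0. These were Dlg3 at 1.7 kb in Tip60 cKO replicate 1 (region rank score 50.8), Shank1 at 37.0 kb in control replicate 3 (46.3) and Homer3 at 8.8 kb in Tip60 cKO replicate 3 (65.4). With the other 4 mice at 0 the criterion is met by construction, so the 5% does not apply to these 3 groups.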

How the results depend on the processing

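The number of members passing the test was 0 by TSS rank score, by TSS coverage and at alternative starts, and an exact permutation test without adjustment gave 1 lower, 2 lower and 4 (2 lower, 2 higher), where it gave 6.69%, 18.7% and 5.93% of all features lower and 5.79%, 0.757% and 4.45% higher. TSS coverage gave 1 with lane as a covariate. Gene body coverage gave 0 in all 21 alternatives. The 4 called regions became 1 with the same number of peaks per list (Shank2 at 239.7 kb), 2 with the robust prior (Dlg2 at 410.5 and 1126.6 kb, neither among the 4), 11 in lane 7 only (3 of the 4) and 3 to 6 on leaving out 1 replicate. Same-numbered mice are different animals whose deviations were correlated at -0.010 to 0.023, so the numbers do not pair them; with a replicate block 0 regions passed (lowest adjusted p = 0.0525). The causes were not tested. Of 939 comparisons of 47 named values, 863 kept direction and side of the threshold, 35 lost the call, 3 gained it and 38 turned direction, all 38 of values that did not pass.

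The TSS rank difference turned by pileup for Dlg2 (-0.44), by log2 fold enrichment for Dlg2 (-0.077), Shank1 (-0.099) and Homer2 (-0.099), in lane 7 only for Dlg4 (0.22) and Homer2 (-0.74), and in the 1 kb window for Dlg4 (1.73), where TSS coverage of Dlg4 (5.28) and the Homer3 start at 2.4 kb (0.42) also turned. TSS coverage of Shank1 turned in lane 7 only (1.89). Gene body coverage turned with the same number of peaks for Dlg3 (-0.21), Shank2 (0.68) and Homer2 (0.41), and in lane 7 only for Dlg4 (1.21), Shank2 (2.43) and Homer2 (1.12). It also turned at q below 0.01 for Shank1 (-0.13) and Homer2 (0.071), on the arcsine scale for Shank1 (-0.000938) and without alternative start windows for Shank2 (0.017). Leaving out 1 replicate gave -20.1 to 2.08 for Dlg3 and -2.75 to 1.21 for Dlg4 by TSS rank. Without a turn it gave 1.15 to 3.85 for Dlg2, 0.46 to 2.27 for Shank1 and -2.32 to -0.17 for Shank3. For Homer2 it gave 0.11 to 2.03 and for Homer1 -34.4 to -16.8. By TSS coverage it gave -7.93 to -1.05 for Dlg3, -7.63 to -0.11 for Dlg4, -3.59 to -1.29 for Homer1 and -4.76 to 0.49 for Shank1. By gene body coverage it gave -0.20 to 0.70 for Dlg1, -2.37 to 3.37 for Shank1, -1.53 to 1.43 for Shank2 and -1.18 to 1.23 for Homer2. Tip60 cKO replicate 5 held the fewest tags and peaks, and the part of depth in these values was not tested.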
